A study of Mus musculus with 16 samples.

Results

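The genes described here encode the nuclear-encoded subunits of the mitochondrial respiratory chain and of ATP synthase, measured in bone marrow of leukemic and wild-type (WT) mice. A gene was taken when a probe set (a group of short array probes read as 1 value) was annotated to that gene alone and its symbol starts with Nduf, Uqcr, Atp5 or Cox followed by a digit from 4 to 8, or is Sdha, Sdhb, Sdhc or Sdhd. A gene with several probe sets was represented by the probe set of highest average level across the 16 arrays. This gave 89 genes from 114 probe sets, out of 19938 genes measured. They fall into complex I (34 genes), complex II (4), complex III (8), complex IV (19) and complex V (17), and the prefix Nduf also brought in 7 assembly factors of complex I, kept apart below.

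RNA came from 16 samples, each on 1 array. The Bank1/Pax5 leukemia group holds 6 mice heterozygous for both Bank1, an adaptor protein of B cell receptor signalling, and Pax5, the transcription factor that fixes B cell identity (Bank1+/- Pax5+/-). The Pax5 leukemia group holds 6 mice heterozygous for Pax5 alone (Pax5+/-), and the WT group holds 4 arrays of pro-B and pre-B cells, the marrow precursors of B cells. For both leukemias the labels give total bone marrow as the tissue, whereas the WT samples are a precursor fraction whose isolation was not stated in the labels read here. The WT group rests on the title, source, tissue and description of those samples, since their cell type entry instead reads as leukemic cells, as in the other groups. The design text speaks of 3 WT mice, while the labels give 4 WT samples. All mice lived in a conventional facility with exposure to common pathogens. The labels give no treatment, no ages and no share of leukemic cells in each marrow.

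The respiratory chain sits in the inner mitochondrial membrane. Complex I takes electrons from NADH and complex II from succinate, coenzyme Q carries them to complex III, cytochrome c carries them on to complex IV, and complex IV passes them to oxygen. Complexes I, III and IV pump protons out of the matrix, and complex V, the ATP synthase, lets them flow back and makes ATP. A few core subunits are encoded by the mitochondrial genome and are not described here. The other subunits are nuclear genes, many of them active in every cell type, and dividing lymphoid precursors use the chain both for ATP and for regenerating the electron acceptors that nucleotide synthesis needs.

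Nuclear respiratory chain genes are known to share promoter elements, so the promoters of a few genes on which the results turn are shown, as windows of 300 bases (250 before the annotated transcription start and 50 after it) from RefSeq, build GRCm38.p6. Windows were found for 73 of the 89 genes. Both strands were searched for the 10-base motif bound by NRF1, for CCGGAAG, a core bound by ETS factors such as the GABP complex, and for AAGATGGC, a sequence bound by YY1. Capitals mark a match in the windows printed, and no match there overlaps a match of another motif. The set holds the complex V gene with the largest increase in Pax5 leukemia (Atp5g1, chr11:96075582-96075881, minus strand), the complex III gene with the largest increase there (Uqcr11, chr10:80406772-80407071, minus strand), an assembly factor that rose in both leukemias (Ndufaf4, chr4:24897833-24898132, plus strand), a complex IV gene that rose in Pax5 leukemia (Cox6b1, chr7:30626065-30626364, minus strand) and the complex I subunit that fell there (Ndufa3, chr7:3617123-3617422, plus strand), each written 5′ to 3′ on the strand of its gene.
Atp5g1: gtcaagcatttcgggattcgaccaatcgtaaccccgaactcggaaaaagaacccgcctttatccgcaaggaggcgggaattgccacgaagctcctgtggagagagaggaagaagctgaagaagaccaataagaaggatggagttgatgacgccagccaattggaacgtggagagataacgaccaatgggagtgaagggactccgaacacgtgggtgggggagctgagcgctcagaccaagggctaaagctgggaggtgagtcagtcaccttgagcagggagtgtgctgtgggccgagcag
Uqcr11: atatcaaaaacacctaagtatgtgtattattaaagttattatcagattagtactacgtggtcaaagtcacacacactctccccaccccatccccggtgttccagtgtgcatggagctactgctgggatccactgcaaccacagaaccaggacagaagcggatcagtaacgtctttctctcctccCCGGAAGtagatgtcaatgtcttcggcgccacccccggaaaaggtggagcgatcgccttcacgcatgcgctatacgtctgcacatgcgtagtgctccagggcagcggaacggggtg
Ndufaf4: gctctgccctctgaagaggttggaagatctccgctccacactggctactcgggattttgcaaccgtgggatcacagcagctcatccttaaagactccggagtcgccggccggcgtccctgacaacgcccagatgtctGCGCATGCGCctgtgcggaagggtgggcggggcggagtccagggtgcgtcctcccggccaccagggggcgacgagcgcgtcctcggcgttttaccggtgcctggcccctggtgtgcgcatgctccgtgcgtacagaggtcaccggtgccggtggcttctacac
Cox6b1: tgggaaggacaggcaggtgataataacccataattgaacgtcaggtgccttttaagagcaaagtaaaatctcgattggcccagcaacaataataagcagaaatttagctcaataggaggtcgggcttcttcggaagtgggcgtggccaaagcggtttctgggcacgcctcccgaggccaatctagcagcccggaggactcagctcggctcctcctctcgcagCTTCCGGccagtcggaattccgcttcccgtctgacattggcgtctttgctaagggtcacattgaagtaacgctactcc
Ndufa3: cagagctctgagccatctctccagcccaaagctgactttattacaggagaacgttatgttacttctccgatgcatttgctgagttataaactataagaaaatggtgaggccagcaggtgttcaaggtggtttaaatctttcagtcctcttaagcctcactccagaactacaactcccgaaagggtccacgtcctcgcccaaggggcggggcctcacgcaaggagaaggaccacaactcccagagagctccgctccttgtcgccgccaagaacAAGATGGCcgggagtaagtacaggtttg

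Uqcr11 holds 1 ETS match at bases 185 to 191 of its window, and Cox6b1 holds 1 on the opposite strand at bases 223 to 229. Ndufaf4 holds the NRF1 sequence, which reads the same on both strands here, at bases 138 to 147. Ndufa3 holds the YY1 sequence just after the start, at bases 273 to 280, and the Atp5g1 window holds none of the 3. Over the 73 genes with a window, 18 held the NRF1 motif (24.7%, against 5.19% of 27025 genes in the table), 18 the ETS motif (24.7%, against 9.93%) and 10 the YY1 motif (13.7%, against 3.19%). At least 1 of the 3 was present in 40 of the 73 (54.8%, against 16.4%). The share was 80.0% in complex V (12 of 15 genes), 51.6% in complex I (16 of 31) and 23.1% in complex IV (3 of 13). Among genes that rose in Pax5 leukemia 10 of 23 held a motif (43.5%), and among genes not called there 29 of 48 did (60.4%). These are matches of letters in a short window, described without a test.

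Before the members, the arrays themselves need a short account. Values are log2 probe set intensities whose array medians lay between 6.58 and 6.71. The number of arrays limits their precision. Bank1 itself differed by -1.54 log2 between Bank1/Pax5 and Pax5 leukemia (SE 0.38, adjusted p = 0.0265), and the Pax5 difference of -1.20 (SE 0.80) was not called (adjusted p = 0.390). The Bank1 call was lost under 8 of 27 other settings of the analysis, listed further below. Against WT, Bank1 differed by 1.01 in Pax5 leukemia (SE 0.42, adjusted p = 0.0964). In Bank1/Pax5 leukemia it differed from WT by -0.53 (SE 0.42, adjusted p = 0.404), and neither was called. The 10 measured markers of B cell precursors had a median level of 12.18 to 12.30 on the WT arrays, 7.32 to 11.75 in Pax5 leukemia and 7.35 to 11.56 in Bank1/Pax5 leukemia. Markers of monocytes and macrophages (12 measured) rose the other way, from 6.49 to 6.62 in WT to 8.47 to 9.94 and 8.63 to 11.32, and so did those of megakaryocytes (7 measured, 6.88 to 7.16 against 8.17 to 10.17 and 8.91 to 11.06) and of stromal and endothelial cells (13 measured, 6.69 to 6.92 against 7.95 to 9.75 and 7.99 to 10.14). NK cell markers (10 measured) were at 7.92 to 8.87 in WT, 5.50 to 5.68 in Pax5 leukemia and 5.75 to 8.25 in Bank1/Pax5 leukemia. Neutrophil markers (13 measured) were at 7.05 to 9.47 (median 8.31) in WT, 7.00 to 11.70 (median 8.26) in Pax5 leukemia and 7.59 to 12.19 (median 9.25) in Bank1/Pax5 leukemia. All 13 differences of group means from WT were positive in each leukemia, but only 1 was called in Pax5 leukemia and none in Bank1/Pax5 leukemia. Neutrophil markers were over 11 on arrays 3 and 6 of Pax5 leukemia and arrays 1 and 5 of Bank1/Pax5 leukemia. Erythroid markers (7 measured) were at 7.34 to 7.69 in WT, 6.46 to 7.08 in Pax5 leukemia and 6.39 to 10.26 in Bank1/Pax5 leukemia, highest on array 1. The part of these cell types in the differences from WT was not tested. In such mixed samples fewer cells of a type and less RNA per cell cannot be told apart, and leukemia and sample type (total marrow against a precursor fraction) cannot be told apart in any comparison with WT.

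Across the respiratory chain, levels were higher in both leukemias than in WT for more genes than they were lower. A gene is called here when its adjusted p (limma's moderated test on all 19938 genes, Benjamini-Hochberg adjustment) is under 0.05. In Pax5 leukemia 29 of the 89 rose and 3 fell against WT, beside 9.53% and 13.8% of all genes. In Bank1/Pax5 leukemia 19 rose and 5 fell, beside 6.80% and 12.8% of all genes. Both comparisons use the same 4 WT arrays, so their values are given side by side and not as support for each other. The median difference of the 89 was 0.20 log2 in Pax5 leukemia (all genes -0.05) and 0.21 in Bank1/Pax5 leukemia (all genes -0.03). The SD of a single gene among the arrays of a group had a median of 0.214 in Pax5 leukemia, 0.259 in Bank1/Pax5 leukemia and 0.0995 in WT. In Pax5 leukemia the 6 values did not overlap the 4 WT values for 25 genes that lay above and 3 that lay below (11.6% and 13.2% of all genes), and in Bank1/Pax5 leukemia for 15 above and 5 below (7.35% and 12.3%).

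The count for Pax5 leukemia was 19 without WT array 4. The count for Bank1/Pax5 leukemia moved with single arrays: 34 rose without array 4 of that group, and 9 without WT array 4, 11 without WT array 3 and 12 without WT array 1. Centring every array on its median left 7 higher and 7 lower there, while cyclic loess gave 31 and 5. Without the 3 leukemia arrays of low Pax5 (arrays 1 and 5 of Bank1/Pax5, array 3 of Pax5) 9 rose and 2 fell in Bank1/Pax5 leukemia, beside 4.60% and 9.19% of all genes. Without the 4 arrays of low B cell precursor markers (arrays 4 and 6 of Bank1/Pax5, arrays 3 and 5 of Pax5) 34 rose and 4 fell, beside 7.97% and 12.6%. The same 2 exclusions left 24 and 27 higher in Pax5 leukemia, beside 9.43% and 10.5% of all genes.

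**Figure D1:**
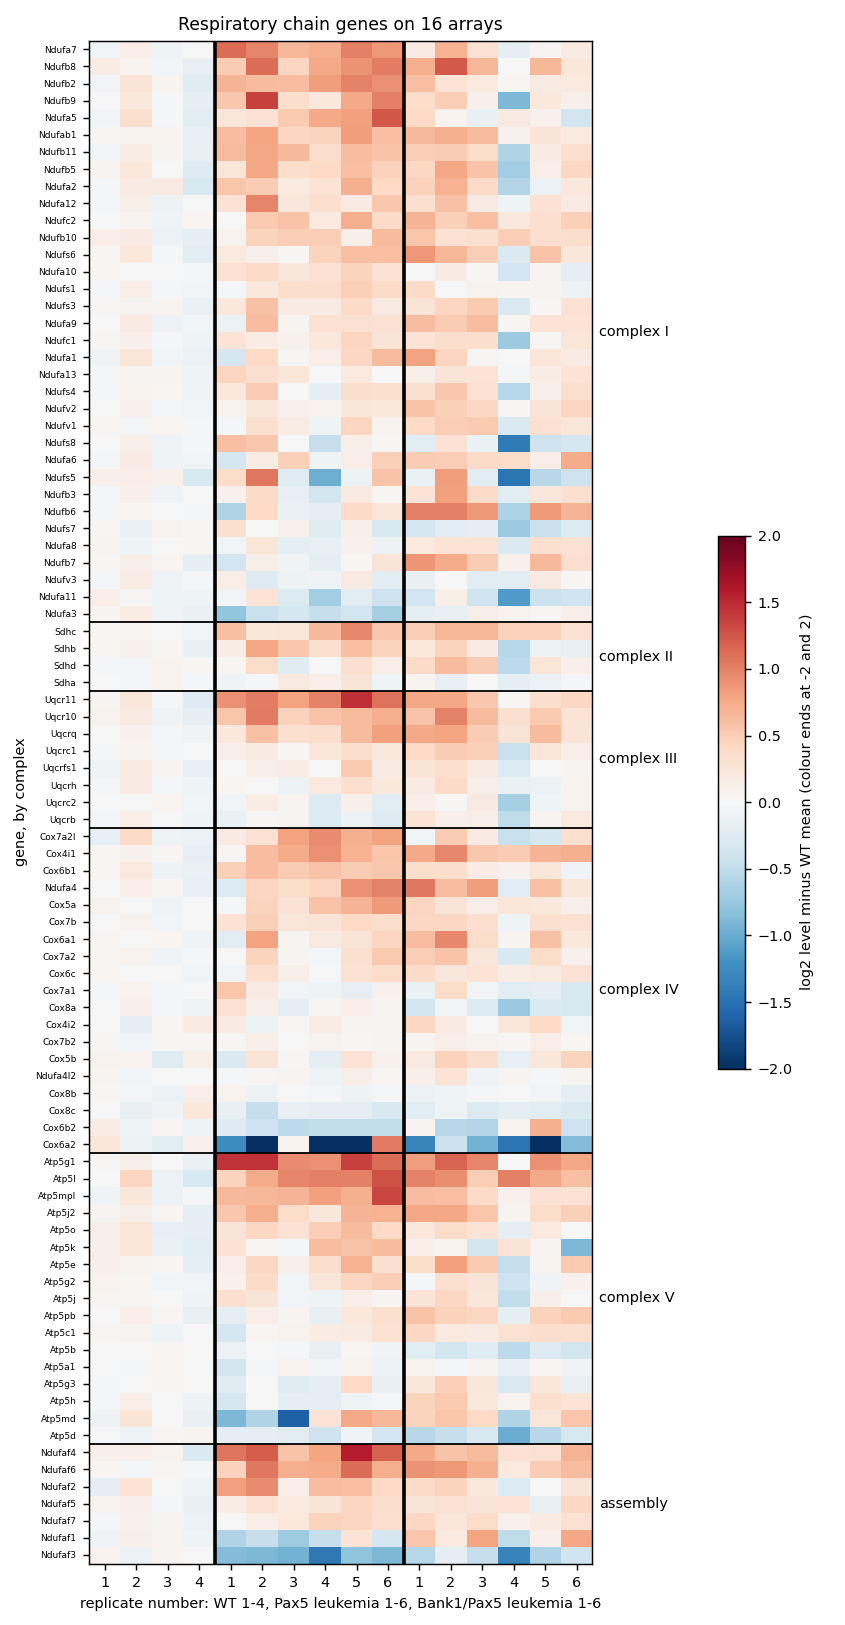
Each row is 1 of the 89 genes, grouped by complex and ordered within it by the difference between Pax5 leukemia and WT; each column is 1 array, by group and replicate number. Colour is the log2 level minus the WT mean of that gene (red higher, blue lower, ends of the scale at -2 and 2). Red prevails in both leukemias except on array 4 of Bank1/Pax5 leukemia, where 36 of 89 genes (40.4%) were above the WT mean, beside 45.4% of all genes on that array.

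Members moved together on single arrays. On array 4 of Bank1/Pax5 leukemia 66 of the 89 genes had their lowest value of the 6, and the median over all members stood 0.17 log2 below the WT mean, whereas it was between 0.18 and 0.43 above it on the other 5. Complex medians on that array were below the WT mean by 0.21 (complex I), 0.35 (complex II), 0.20 (complex III) and 0.17 (complex V), with complex IV at -0.01. This array also had the lowest B cell precursor median of its group (7.35) and the highest medians of monocyte (11.32) and megakaryocyte (11.06) markers. Of the other arrays of low B cell precursor markers, array 6 of Bank1/Pax5 leukemia (8.14) had a member median 0.21 above the WT mean. In Pax5 leukemia, array 3 (7.32) stood 0.08 above it and array 5 (7.62) 0.38 above it. Array 5 of Bank1/Pax5 leukemia, with monocyte markers at 10.70 and megakaryocyte markers at 10.92, stood 0.18 above it. Whether marker and member levels go together was not tested. The WT arrays differed too: WT array 4 held the lowest of the 4 values for 56 genes and WT array 2 the highest for 56. In Pax5 leukemia the median over all members was above the WT mean on all 6 arrays, between 0.08 and 0.38.

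**Figure D2:**
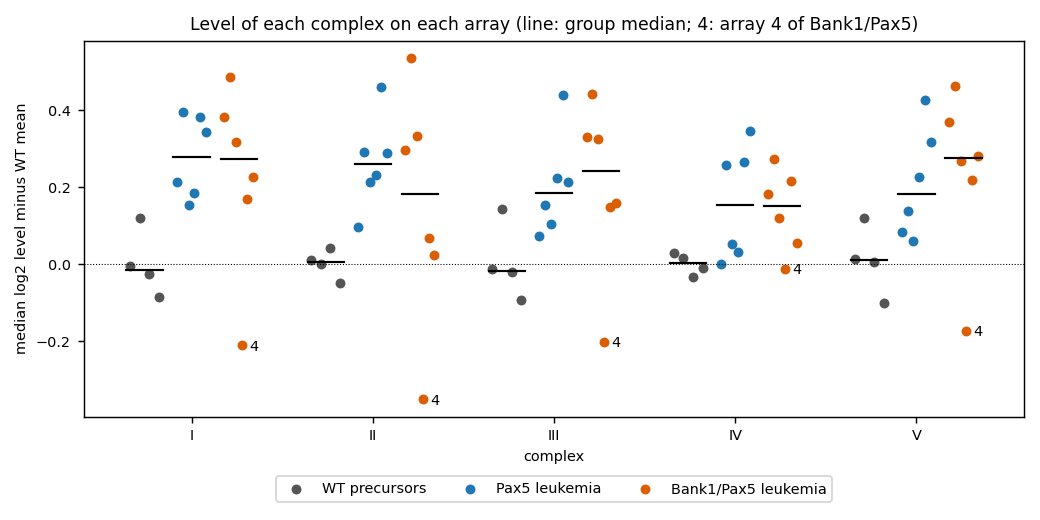
Each point is 1 array, placed at the median over the genes of a complex of the log2 level minus the WT mean; colours are the 3 groups and black lines the group medians. WT arrays lie near 0 by construction. The point marked 4 is array 4 of Bank1/Pax5 leukemia, which is the lowest leukemia array in every complex.

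Complex I, the NADH dehydrogenase, is built from a peripheral arm that oxidises NADH and a membrane arm that pumps protons. Of its 34 genes 10 rose and 1 fell in Pax5 leukemia (median 0.24), and 5 rose and 1 fell in Bank1/Pax5 leukemia (median 0.21). The latter count depended on the scaling, with none higher after median centring (median 0.11) and 12 higher after cyclic loess (median 0.31). The calls in Pax5 leukemia were mostly of accessory subunits, which surround the catalytic core: 2 of 9 in the peripheral arm, 6 of 18 in the membrane arm and Ndufab1, the acyl carrier protein found in both arms. Accessory subunits are also most of the complex I genes measured, and whether they differ from core subunits was not tested. Of the 6 measured core subunits of the peripheral arm, which hold the iron-sulfur clusters and flavin, only Ndufs1 was called (0.28, SE 0.10, adjusted p = 0.0461), a gene named here after its value was seen and whose call was lost under 17 of 27 other settings.

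Ndufa7, an accessory subunit of the peripheral arm, was at 8.80, 8.98, 8.77 and 8.85 log2 on the WT arrays, at 9.51 to 9.97 (median 9.77) in Pax5 leukemia and at 8.65 to 9.55 (median 9.01) in Bank1/Pax5 leukemia. All 6 Pax5 leukemias lay above every WT sample, and the Bank1/Pax5 leukemias spanned the WT range. It rose 1.86-fold in Pax5 leukemia (0.89 log2, SE 0.14, adjusted p = 0.000329), was not called in Bank1/Pax5 leukemia (0.20, SE 0.14, adjusted p = 0.337), and was 0.69 lower in Bank1/Pax5 leukemia than in Pax5 leukemia (difference -0.69, SE 0.12, adjusted p = 0.00531).

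Ndufb2, of the membrane arm, had the same order of groups, with WT at 7.00, 7.31, 7.11 and 6.82, Pax5 leukemia at 7.68 to 8.05 (median 7.81) and Bank1/Pax5 leukemia at 7.08 to 7.66 (median 7.26). Pax5 leukemia overlapped neither other group. The differences were 0.78 (SE 0.12, adjusted p = 0.000258) for Pax5 leukemia against WT and -0.53 (SE 0.10, adjusted p = 0.00861) between the leukemias. The call between the leukemias was lost without the arrays of low B cell precursor markers (adjusted p = 0.0627). Ndufa10, also of the membrane arm, was higher in Pax5 leukemia than in WT by 0.33 (SE 0.09) and lower in Bank1/Pax5 leukemia than in Pax5 leukemia (-0.38, SE 0.08), and Ndufa5, of the peripheral arm, showed 0.64 (SE 0.19) and -0.61 (SE 0.17). The Ndufa5 call between the leukemias (adjusted p = 0.0455) was lost under 18 of 27 other settings, and its call against WT under 5. The Ndufa10 call against WT was lost after median centring.

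Ndufa3, a small subunit of the membrane arm, ran the other way. WT arrays read 10.83, 10.92, 10.71 and 10.65, Pax5 leukemia 9.99 to 10.42 (median 10.32) and Bank1/Pax5 leukemia 10.59 to 10.89 (median 10.82). Every Pax5 leukemia was below every sample of both other groups. Its difference was -0.52 in Pax5 leukemia (SE 0.09, adjusted p = 0.00112) and -0.00 in Bank1/Pax5 leukemia (SE 0.09, adjusted p = 0.982), and 0.51 between the leukemias (SE 0.08, adjusted p = 0.00354).

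Ndufb7, of the membrane arm on the intermembrane side, was higher in Bank1/Pax5 leukemia, at 9.65 to 10.44 (median 10.13), than in Pax5 leukemia, at 9.17 to 9.82 (median 9.54), with WT at 9.59, 9.68, 9.59 and 9.37. The 2 leukemias overlapped between 9.65 and 9.82. Its differences were 0.57 between the leukemias (SE 0.13, adjusted p = 0.0204), 0.53 against WT in Bank1/Pax5 leukemia (SE 0.15, adjusted p = 0.0191) and -0.04 in Pax5 leukemia (SE 0.15, adjusted p = 0.872). The call between the leukemias was lost without the arrays of low Pax5 and when the leukemias were fitted without WT, and the call against WT under 4 of 27 other settings.

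Among the other complex I genes, Ndufab1 (0.62 in Pax5 and 0.42 in Bank1/Pax5 leukemia), Ndufb10 (0.37 and 0.39) and Ndufc2 (0.40 and 0.46) were called higher in both leukemias. Of these, the calls of Ndufab1 in Bank1/Pax5 leukemia and of Ndufc2 in Pax5 leukemia were each lost under 10 of 27 other settings, those of Ndufb10 under 7 and 6, and that of Ndufc2 in Bank1/Pax5 leukemia under 4. Ndufb8 (0.78, SE 0.20, adjusted p = 0.0108) and Ndufb11 (0.60, SE 0.17, adjusted p = 0.0218, lost under 2 of 27 other settings) were called in Pax5 leukemia. In Bank1/Pax5 leukemia they had differences of 0.59 (SE 0.20, adjusted p = 0.0509) and 0.21 (SE 0.17, adjusted p = 0.419). Of the iron-sulfur core subunits in Bank1/Pax5 leukemia, Ndufv2 rose (0.36, SE 0.09, adjusted p = 0.00893) and Ndufs7 fell (-0.37, SE 0.12, adjusted p = 0.0490), the Ndufs7 call being lost under 15 of 27 other settings. The Ndufv2 call was lost after median centring. Ndufs5 and Ndufb6, both of the membrane arm, varied most among complex I genes, with an SD of 0.74 and 0.63 in Bank1/Pax5 leukemia and no call in any comparison.

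**Figure D3:**
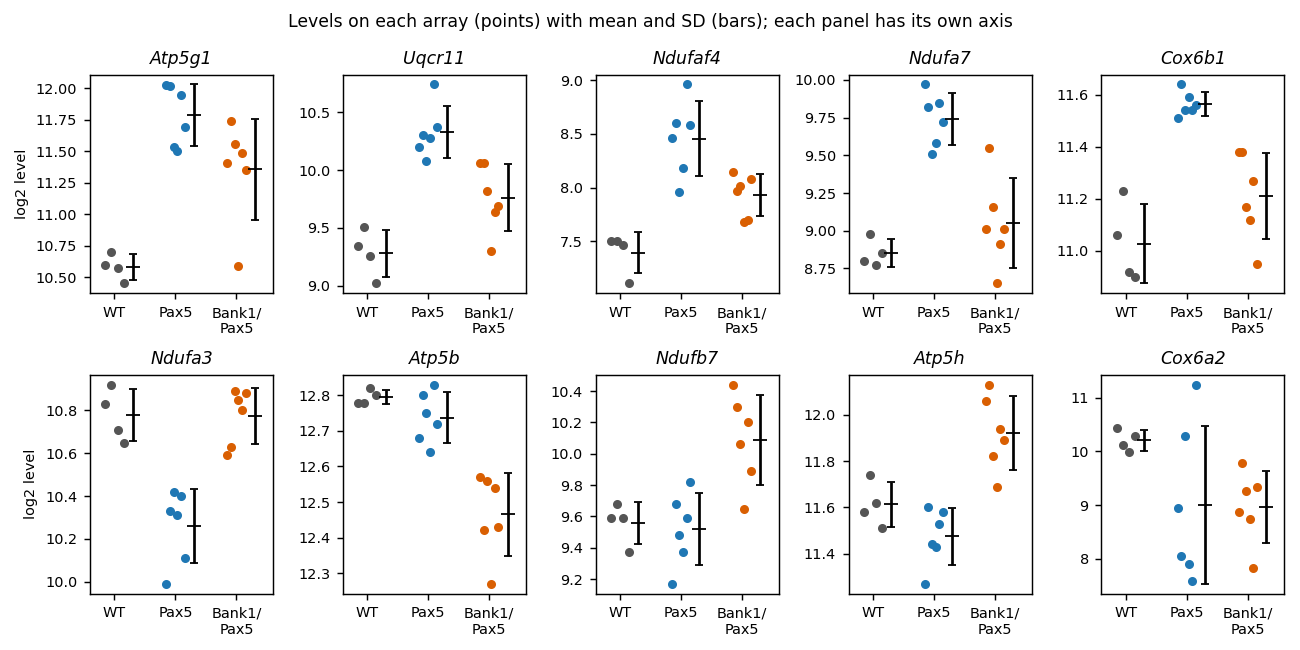
Log2 levels of 10 genes, 1 panel each with its own axis; points are arrays (4 WT, 6 Pax5 leukemia, 6 Bank1/Pax5 leukemia) and the bars beside them are the mean and SD. Pax5 leukemia stands above both other groups for Uqcr11 and Cox6b1 and below them for Ndufa3, while Atp5b is lowest and Atp5h highest in Bank1/Pax5 leukemia.

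Complex I assembly factors help build the complex and are not part of the finished enzyme. Ndufaf4, which works with Ndufaf3 early in assembly, was at 7.50, 7.50, 7.47 and 7.11 in WT, 7.96 to 8.96 (median 8.52) in Pax5 leukemia and 7.68 to 8.15 (median 7.99) in Bank1/Pax5 leukemia. Both leukemias lay wholly above WT. The differences were 1.06 (2.09-fold, SE 0.16, adjusted p = 0.000353) and 0.54 (1.45-fold, SE 0.16, adjusted p = 0.0324, lost under 9 of 27 other settings).

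Its partner Ndufaf3 was lower in both leukemias. WT read 10.27, 10.08, 10.24 and 10.18, Pax5 leukemia 8.76 to 9.39 (median 9.30) and Bank1/Pax5 leukemia 8.86 to 10.02 (median 9.67), with no overlap with WT. It fell by 0.97 in Pax5 leukemia (difference -0.97, SE 0.18, adjusted p = 0.00125) and by 0.59 in Bank1/Pax5 leukemia (difference -0.59, SE 0.18, adjusted p = 0.0291, lost under 5 of 27 other settings). Ndufaf6 rose in both (0.81 and 0.64, SE 0.14 each, adjusted p = 0.000720 and 0.00430), from WT levels of 6.18 to 6.26 that lie under the median of all named probe sets (7.01) and so near the dim end of the array. Ndufaf2 (0.59, SE 0.16, a call lost under 2 other settings) and the dim Ndufaf5 (0.28, SE 0.09, a call lost under 13 other settings) were called in Pax5 leukemia alone, which is no test of a difference from Bank1/Pax5 leukemia (-0.42, adjusted p = 0.0982, and -0.05, adjusted p = 0.747). The further assembly factors Ndufaf1 and Ndufaf7 missed the threshold: Ndufaf1 differed by 0.70 between the leukemias (adjusted p = 0.0581), higher in Bank1/Pax5 leukemia, and Ndufaf7 by 0.27 between Bank1/Pax5 leukemia and WT (adjusted p = 0.0515).

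In complex II, succinate dehydrogenase, which also serves in the TCA cycle, Sdhc rose in both leukemias. This membrane anchor was at 9.97, 9.97, 9.92 and 9.87 in WT, at 10.16 to 10.89 (median 10.51) in Pax5 leukemia and at 10.24 to 10.60 (median 10.42) in Bank1/Pax5 leukemia. No leukemia value reached down to WT, and the differences were 0.54 (SE 0.12, adjusted p = 0.00498) and 0.51 (SE 0.12, adjusted p = 0.00762). Sdhb, the iron-sulfur subunit, was called in Pax5 leukemia (0.47, SE 0.16, adjusted p = 0.0462), a call lost under 15 of 27 other settings, and its difference in Bank1/Pax5 leukemia was -0.00 (SE 0.16). Sdha, the flavin subunit, had differences of 0.06 and -0.07 (SE 0.07 each), and Sdhd, the other anchor, of 0.10 and 0.22 (SE 0.18 each), none called.

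Complex III, the cytochrome bc1 complex, had 3 of 8 genes called higher in each leukemia and none lower, and all 3 are small accessory subunits. After median centring 2 were called in Bank1/Pax5 leukemia, where 4 of 8 differences were positive. Uqcr11 was at 9.34, 9.51, 9.26 and 9.02 in WT, 10.08 to 10.74 (median 10.29) in Pax5 leukemia and 9.30 to 10.06 (median 9.75) in Bank1/Pax5 leukemia. Pax5 leukemia lay above both other groups without overlap. It rose 2.07-fold in Pax5 leukemia (1.05 log2, SE 0.15, adjusted p = 0.000229) and 1.39-fold in Bank1/Pax5 leukemia (0.48, SE 0.15, adjusted p = 0.0396, lost under 12 of 27 other settings), and was lower in the latter than in the former (-0.57, SE 0.14, adjusted p = 0.0243). The call between the leukemias was lost under 3 of 27 other settings, among them leaving out the arrays of low B cell precursor markers. A second probe set of this gene gave 0.80, 0.21 and -0.60 for the same comparisons.

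Uqcr10 rose by 0.67 (SE 0.13, adjusted p = 0.00259) and 0.55 (SE 0.13, adjusted p = 0.00969), and Uqcrq by 0.49 (SE 0.13, adjusted p = 0.0140) and 0.54 (SE 0.13, adjusted p = 0.00898). For both genes every leukemia array of both groups was above every WT array. The core proteins Uqcrc1 (0.19 and 0.22, SE 0.14 each) and Uqcrc2 (-0.04 and -0.06, SE 0.14 each) and the Rieske iron-sulfur protein Uqcrfs1 (0.16 and 0.09, SE 0.12 each), which carries electrons to cytochrome c1, were not called.

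Complex IV, cytochrome c oxidase, has subunits made in nearly all cells and isoforms found in few tissues. Of 10 widely expressed subunits 4 rose and none fell in Pax5 leukemia (10 of 10 with a positive difference, 9 of 10 after cyclic loess or median centring), and 3 rose and 1 fell in Bank1/Pax5 leukemia (1 rose after median centring and 5 after cyclic loess). Cox4i1, which takes part in regulation by ATP, was at 9.82, 9.87, 9.81 and 9.62 in WT, 9.80 to 10.70 (median 10.43) in Pax5 leukemia and 10.29 to 10.74 (median 10.48) in Bank1/Pax5 leukemia. Only the lowest Pax5 leukemia reached into the WT range, and the differences were 0.59 (SE 0.14, adjusted p = 0.00649) and 0.69 (SE 0.14, adjusted p = 0.00254).

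Cox6b1, on the side of the intermembrane space, was tightly grouped at 11.51 to 11.64 (median 11.55) in Pax5 leukemia, with WT at 11.06, 11.23, 10.92 and 10.90 and Bank1/Pax5 leukemia at 10.95 to 11.38 (median 11.22). Pax5 leukemia overlapped neither other group. It rose by 0.54 in Pax5 leukemia (SE 0.08, adjusted p = 0.000354), was not called in Bank1/Pax5 leukemia (0.19, SE 0.08, adjusted p = 0.136) and was lower there than in Pax5 leukemia (-0.35, SE 0.07, adjusted p = 0.0136). The call between the leukemias was lost without the arrays of low B cell precursor markers (adjusted p = 0.0747). Cox8a was lower in Bank1/Pax5 leukemia than in WT (-0.35, SE 0.11, adjusted p = 0.0387, a call lost under 10 of 27 other settings) and than in Pax5 leukemia (-0.42, SE 0.10, adjusted p = 0.0215). The latter call was lost when the leukemias were fitted without WT.

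Cox7b was called in both leukemias (0.34 and 0.29, SE 0.08 each, the latter call lost under 10 of 27 other settings), Cox5a in Pax5 leukemia (0.47, SE 0.13, adjusted p = 0.0178) and Cox6c in Bank1/Pax5 leukemia (0.25, SE 0.08, adjusted p = 0.0411, lost under 14 of 27 other settings). The Cox7b call in Pax5 leukemia was lost after median centring, and the Cox5a call under 2 of 27 other settings. Cox7a2l, related to the Cox7a isoforms and involved in joining complexes into supercomplexes, was called in Pax5 leukemia (0.62, SE 0.20, adjusted p = 0.0383), a call lost under 12 of 27 other settings, and a second probe set gave 0.32. Cox6a1 (0.25 and 0.47, SE 0.18 each), Cox7a2 (0.22 and 0.25, SE 0.15 each) and Ndufa4, once placed in complex I and now counted with complex IV (0.48 and 0.52, SE 0.25 each), were not called.

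Of 8 tissue-restricted or regulated isoforms none was called higher in either leukemia, and 5 of them were dim in all 3 groups. Cox8c, one of these, fell in Pax5 leukemia (-0.23, SE 0.08, adjusted p = 0.0391), a call lost under 10 of 26 other settings. Cox7a1, Cox7b2, Cox8b and Ndufa4l2, the other dim isoforms, had differences between -0.09 and 0.09, and Cox4i2, at 6.95 to 7.30 in WT, had 0.06 and 0.19 (SE 0.10 each). Cox6b2, known from testis, had -0.45 and -0.12 (SE 0.20 each).

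Cox6a2, the isoform best known from heart and skeletal muscle, was the member with the widest spread. It was at 10.44, 10.11, 9.98 and 10.29 in WT, at 7.59 to 11.24 (median 8.50) in Pax5 leukemia and at 7.83 to 9.78 (median 9.07) in Bank1/Pax5 leukemia. All Bank1/Pax5 leukemias were below WT, while Pax5 leukemia ran from far below to above it, with an SD of 1.47. Its differences of -1.20 and -1.23 (SE 0.61 each) were the most negative of the 89 and were not called (adjusted p = 0.167 and 0.176).

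**Figure D4:**
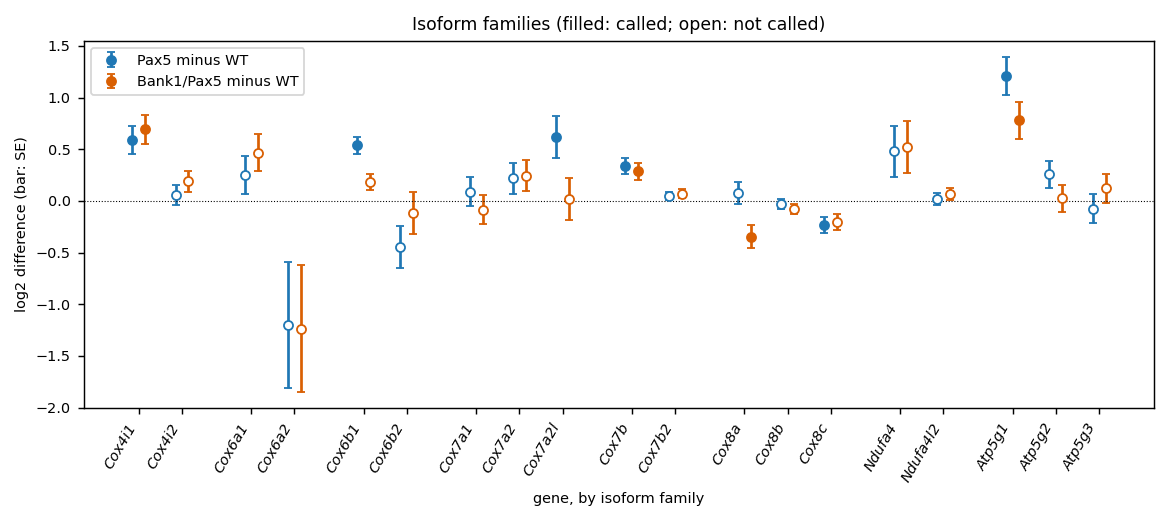
Log2 difference from WT with its SE for the isoform families of complex IV and for the genes of the c subunit of complex V; blue is Pax5 leukemia, orange Bank1/Pax5 leukemia, and filled points are called. Cox4i1, Cox7b and Atp5g1 are filled in both, and Cox6a2 has the widest error bars.

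Complex V, the ATP synthase, consists of the catalytic F1 head, a rotating ring of c subunits and the stalks and membrane parts around them. The c subunit is encoded by Atp5g1, Atp5g2 and Atp5g3, which differ in the sequence that directs import and give the same mature protein. Atp5g1 was at 10.60, 10.70, 10.57 and 10.45 in WT, 11.50 to 12.03 (median 11.82) in Pax5 leukemia and 10.59 to 11.74 (median 11.45) in Bank1/Pax5 leukemia. Every Pax5 leukemia was above WT, and in Bank1/Pax5 leukemia only array 4 (10.59) fell within the WT range.

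Atp5g1 rose 2.31-fold in Pax5 leukemia (1.21 log2, SE 0.18, adjusted p = 0.000291), the largest increase of the 89, and 1.71-fold in Bank1/Pax5 leukemia (0.78, SE 0.18, adjusted p = 0.00733). Its second probe set gave 1.06 and 0.66. Atp5g2 (0.26 and 0.03, SE 0.13 each) and Atp5g3 (-0.07 and 0.12, SE 0.14 each) were not called; whether the 3 genes differ from one another in their response was not tested.

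Of 5 other subunits of the membrane part 3 rose in Pax5 leukemia and 2 in Bank1/Pax5 leukemia, and none fell. In the latter 1 rose after median centring and 3 after cyclic loess. Atp5l was at 9.10, 9.53, 8.99 and 8.78 in WT, 9.55 to 10.37 (median 10.09) in Pax5 leukemia and 9.59 to 10.10 (median 9.95) in Bank1/Pax5 leukemia, above WT on all 12 leukemia arrays. The differences were 0.91 (SE 0.16, adjusted p = 0.00117) and 0.80 (SE 0.16, adjusted p = 0.00342), and its 6 probe sets gave 0.79 to 0.94 and 0.74 to 0.85. Atp5j2 rose by 0.54 and 0.50 (SE 0.14 each, adjusted p = 0.0110 and 0.0187), and Atp5mpl by 0.81 in Pax5 leukemia (SE 0.14, adjusted p = 0.000702). The Atp5j2 call in Bank1/Pax5 leukemia was lost under 3 of 27 other settings. Atp5md varied widely in Pax5 leukemia, at 10.04 to 12.43 (SD 0.96), and was not called (-0.24 and 0.26, SE 0.40 each). Atp5k was not called either (0.35 and -0.13, SE 0.21 each).

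Of the 5 genes of the F1 head and central stalk none was called in Pax5 leukemia, and 1 rose and 2 fell in Bank1/Pax5 leukemia. After cyclic loess 1 fell in Pax5 leukemia, and after median centring 0 rose and 2 fell in Bank1/Pax5 leukemia. Whether these genes differ from those of the membrane part was not tested. In Bank1/Pax5 leukemia the catalytic beta subunit Atp5b was at 12.27 to 12.57 (median 12.48), below WT at 12.78, 12.78, 12.82 and 12.80 and below Pax5 leukemia at 12.64 to 12.83 (median 12.74), with no overlap. Its differences were -0.33 against WT (SE 0.06, adjusted p = 0.00108) and -0.27 against Pax5 leukemia (SE 0.05, adjusted p = 0.00834). The call against Pax5 leukemia was lost without the arrays of low B cell precursor markers (adjusted p = 0.0621).

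Atp5d, of the central stalk, was also lower in Bank1/Pax5 leukemia than in WT (-0.54, SE 0.11, adjusted p = 0.00371), with -0.24 (SE 0.11, adjusted p = 0.125) in Pax5 leukemia. Atp5c1, the gamma subunit that turns inside the head, was higher in Bank1/Pax5 leukemia (0.29, SE 0.10, adjusted p = 0.0444), a call lost under 17 of 27 other settings. The alpha subunit Atp5a1 had -0.07 and -0.01 (SE 0.08 each).

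In the peripheral stalk, which holds the head still, Atp5h was higher in Bank1/Pax5 leukemia, at 11.69 to 12.13 (median 11.91), than in Pax5 leukemia, at 11.27 to 11.60 (median 11.49), with WT at 11.58, 11.74, 11.62 and 11.51. The leukemias did not overlap. The difference between them was 0.45 (SE 0.08, adjusted p = 0.00474), with 0.34 and 0.40 from 2 other probe sets, and against WT it was 0.31 in Bank1/Pax5 leukemia (SE 0.09, adjusted p = 0.0188) and -0.14 in Pax5 leukemia (SE 0.09, adjusted p = 0.261). The call against WT was lost under 5 of 27 other settings, among them the mean of all probe sets. Atp5o, the subunit that joins stalk and head, rose in Pax5 leukemia (0.41, SE 0.11, adjusted p = 0.0172), a call lost under 3 of 27 other settings.

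The direct comparison of the leukemias gave 3 higher and 10 lower members in Bank1/Pax5 than in Pax5 leukemia, beside 1.71% and 5.00% of all genes. Higher were Ndufa3, Ndufb7 and Atp5h; lower were Ndufa5, Ndufa7, Ndufa10, Ndufb2, Uqcr11, Cox6b1, Cox8a, Atp5b, Atp5mpl (-0.44, SE 0.12, adjusted p = 0.0464, lost under 20 of 27 other settings) and Ndufaf4 (-0.52, SE 0.15, adjusted p = 0.0461, lost under 18). The groups did not overlap for 2 of the higher and 6 of the lower genes (0.833% and 1.87% of all genes). The median over the 89 was -0.03 (all genes 0.02) and turned to 0.03 after cyclic loess, so no direction is given for the chain as a whole. Cyclic loess gave 7 higher and 7 lower, beside 2.27% and 3.10% of all genes. Without array 4 of Bank1/Pax5 leukemia 10 were higher and 7 lower, beside 1.74% and 4.36%. Without the 4 arrays of low B cell precursor markers 9 were higher and 3 lower, beside 1.28% and 3.22%. Without array 5 of Bank1/Pax5 leukemia 6 were lower, beside 2.75% of all genes.

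**Figure D5:**
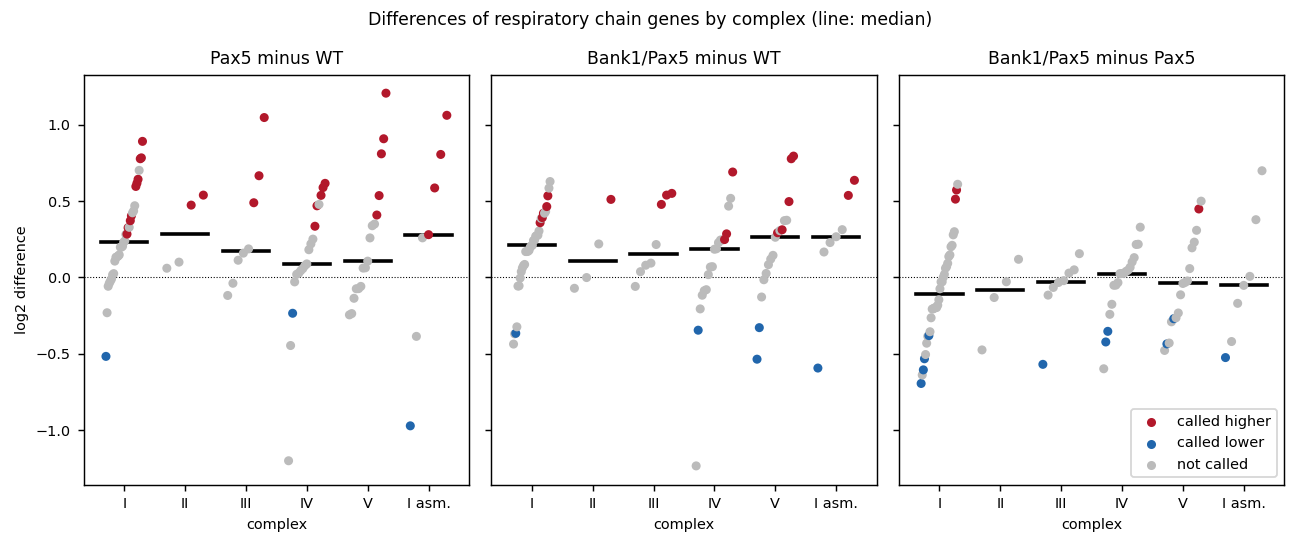
Log2 difference of each gene in the 3 comparisons, by complex (I asm. stands for complex I assembly factors); red points are called higher, blue points called lower, grey points not called, and lines are medians. Against WT the medians of all complexes are above 0 in the deposited values, between 0.09 and 0.29. After median centring the medians in Bank1/Pax5 leukemia are 0.01 for complex II and 0.06 for complex III. Between the leukemias the medians of the deposited values lie between -0.11 and 0.03.

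Genes that serve the chain without being subunits were followed in 6 further lists. Of 42 measured assembly factors outside the Nduf prefix, 6 rose and 2 fell in Pax5 leukemia and 9 rose and 4 fell in Bank1/Pax5 leukemia. These are 14.3% and 4.76%, and 21.4% and 9.52%, of the list, against 9.53% and 13.8%, and 6.80% and 12.8%, of all genes, which are the shares to hold beside each of the lists. Uqcc2, needed for making cytochrome b in complex III, was at 8.61 to 9.25 in WT, 10.33 to 10.76 in Pax5 leukemia and 9.50 to 11.09 in Bank1/Pax5 leukemia, above WT on every leukemia array. Its differences were 1.62 and 1.61 (SE 0.24 each, adjusted p = 0.000294 and 0.000350). Sdhaf2, which attaches the flavin to Sdha, fell by 0.99 (difference -0.99, SE 0.18) and by 1.14 (difference -1.14, SE 0.18), from 10.52 to 10.54 in WT to 9.21 to 9.87 and 8.85 to 9.98. Cmc1, a complex IV assembly factor, rose in Bank1/Pax5 leukemia alone (1.24, SE 0.23, adjusted p = 0.00161) and was higher there than in Pax5 leukemia (1.00, SE 0.21, adjusted p = 0.0121).

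Of 19 measured genes for electron carriers and coenzyme Q synthesis, 5 rose and 2 fell in Pax5 leukemia (26.3% and 10.5%) and 4 rose and 2 fell in Bank1/Pax5 leukemia (21.1% and 10.5%). Etfb, a subunit of the electron transfer flavoprotein, rose by 0.64 and 1.10 (SE 0.14 each, adjusted p = 0.00402 and 7.37e-05), and Coq7, a coenzyme Q hydroxylase, fell by 0.67 and 0.77 (differences -0.67 and -0.77, SE 0.10 each). Of 17 TCA cycle genes 4 rose and 2 fell in Pax5 leukemia (23.5% and 11.8%), and 2 rose and 2 fell in Bank1/Pax5 leukemia (11.8% each, beside 6.80% and 12.8% of all genes). Suclg1, a succinyl-CoA ligase subunit, rose by 0.77 and 0.59 (SE 0.14 each), and Ogdh, of the oxoglutarate dehydrogenase complex, fell by 0.25 and 0.48 (differences -0.25 and -0.48, SE 0.07 each). Of 8 carriers and channels 3 rose and 1 fell in Pax5 leukemia and none was called in Bank1/Pax5 leukemia. Vdac1, the main channel of the outer membrane, rose in Pax5 leukemia (0.72, SE 0.10, adjusted p = 0.000148) and was lower in Bank1/Pax5 leukemia than in Pax5 leukemia (-0.48, SE 0.09, adjusted p = 0.00713).

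Mitochondrial ribosomal proteins, which translate the mitochondrially encoded subunits, gave 21 higher and 2 lower of 77 in Pax5 leukemia (median 0.22) and 8 higher and 3 lower in Bank1/Pax5 leukemia (median 0.16). Mrps34 rose by 0.87 and 1.10 (SE 0.11 each), and Mrpl49 fell by 0.97 and 1.33 (differences -0.97 and -1.33, SE 0.23 each). Between the leukemias none of the 77 was called higher and 5 were called lower (6.49%), beside 1.71% higher and 5.00% lower of all genes.

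Regulators of these genes and factors of mitochondrial genome expression went both ways, with 7 higher and 9 lower of 23 in Pax5 leukemia and 4 higher and 9 lower in Bank1/Pax5 leukemia. Pprc1, a coactivator of the PGC-1 family that responds to growth signals, was at 7.80 to 8.16 in WT, 8.93 to 9.77 (median 9.61) in Pax5 leukemia and 8.89 to 9.15 (median 8.96) in Bank1/Pax5 leukemia. Both leukemias lay above WT, with differences of 1.47 and 0.99 (SE 0.14 each, adjusted p = 8.45e-06 and 0.000250), and it was lower in Bank1/Pax5 leukemia than in Pax5 leukemia (-0.49, SE 0.13, adjusted p = 0.0361). The related Ppargc1a differed by -1.50 and -1.41 (SE 0.05 each), yet stood at 6.40 to 6.52 in WT and 4.84 to 5.15 in the leukemias, under the dim threshold of 7.01 throughout.

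The factors whose motifs were searched above were lower or not called. Nrf1 was at 9.33 to 9.56 in WT, 8.74 to 9.07 in Pax5 leukemia and 8.40 to 9.08 in Bank1/Pax5 leukemia, with no overlap with WT, and differed by -0.48 and -0.70 (SE 0.12 each, adjusted p = 0.00931 and 0.000865). Of the GABP genes, Gabpb2 differed by -0.78 and -0.87 (SE 0.10 each), Gabpb1 by -0.73 and -0.75 (SE 0.21 each), and the DNA-binding Gabpa by -0.20 and -0.16 (SE 0.12 each, not called). Yy1 differed by -0.34 and -0.28 (SE 0.08 each, adjusted p = 0.00543 and 0.0190). Tfam, which packs and transcribes mitochondrial DNA, and Esrra, a nuclear receptor partner of the PGC-1 coactivators, were not called in any comparison.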

How the data were processed

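Total RNA was labelled with biotin and hybridised to 16 arrays, 1 per sample. The deposited values are log2 intensities of 35556 probe sets that the authors obtained with RMA through the oligo package, per the submitters' processing notes, which state no versions; RMA corrects background, equalises the distributions of the arrays and summarises probes, which can shrink small differences. Probe sets were named through the platform annotation and current RefSeq symbols: 21789 named 1 gene, 1621 several (not used) and 12146 none. Levels were compared per gene only between arrays. Whether probe sets also detect near-identical copies of a gene was not tested.

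Groups came from the labels. One limma fit (version 3.58.1, R 4.3.3) of the 19938 genes over all 3 groups, without covariates, gave each difference as a log2 value with its SE, and p-values were adjusted over all genes by Benjamini-Hochberg (threshold 0.05). Dim means under 7.01, the median of all probe sets that name 1 gene. The code was tested on simulated data with 200 genes changed by 1 log2, of which 80.5% to 87.0% were recovered for Pax5 leukemia against WT, 77.0% to 82.5% for Bank1/Pax5 leukemia against WT and 81.5% to 90.0% between the leukemias. In the same order, 4.49% to 7.47%, 3.51% to 5.52% and 4.26% to 5.23% of the calls were false. Each simulated gene had 1 SD for all groups and varied independently of other genes, unlike the data. Smaller differences were not simulated. The labels call the replicates of each group biological and give each to a mouse. Replicate numbers showed no pairing of the samples, which does not exclude one (correlations of deviations from the group mean between -0.38 and 0.32 over 14 same-number pairs).

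The members and lists were chosen with earlier results of these data known. Named are all called members up to the 30 with the smallest p in a comparison, up to 4 of each complex with the smallest p, the isoform families, and up to 3 genes of each further list; Atp5a1, Atp5md, Ndufb6, Ndufs1, Ndufs5, Uqcrc1, Uqcrc2, Nrf1, Yy1, Gabpa, Gabpb1, Tfam and Esrra were named after their values were seen. Alternatives tried were the removal of dim probe sets, the mean of all probe sets, array weights, robust moderation with a trend in the variance, rescaling by cyclic loess or to equal medians, fits of 2 groups, a replicate block, the annotation's own symbols and leaving out each array; leaving out arrays of low Pax5 or low B cell precursor markers, keeping members with a single probe set and dropping assembly factors were chosen after seeing the data.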

Additional observations from a re-analysis of the deposited data

Results flagged for a closer look

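In 144 sets of values from 1 group (complex medians, and levels of 41 members called in a comparison), the highest or lowest array was checked for standing apart from the rest by Dixon's criterion, and 11 sets did; chance marks about 1 set in 20. Array 4 of Bank1/Pax5 leukemia was the low one in 5 of them: Atp5d at 12.01 (others 12.45 to 12.70), Atp5g1 at 10.59 (11.35 to 11.74), Cox7b at 12.19 (12.58 to 12.69), Ndufaf3 at 8.86 (9.59 to 10.02) and Ndufb11 at 10.55 (11.31 to 11.66). Array 1 of that group was high for Ndufs1 at 9.67 (9.20 to 9.36), and array 5 was low for Ndufaf5 at 6.51 (6.92 to 7.08). In Pax5 leukemia, array 6 was high for Atp5mpl at 10.80 (10.12 to 10.29) and array 4 low for Ndufaf3 at 8.76 (9.24 to 9.39). In WT, array 2 was high for Cox7a2l at 9.88 (9.34 to 9.41) and array 4 low for Ndufaf4 at 7.11 (7.47 to 7.50).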

How the results depend on the processing

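The median member differences stayed within 0.16 to 0.30 log2 for both comparisons with WT under all alternatives except median centring in Bank1/Pax5 leukemia (0.11). The following counts moved by more than 1.5 times, and the cause was not tested. With array weights 6 members fell in Pax5 leukemia, 36 rose in Bank1/Pax5 leukemia and 6 were higher than in Pax5 leukemia. Of all genes 24.1%, 12.9% and 1.69% did so, in that order. For Bank1/Pax5 leukemia against WT, 31 rose with cyclic loess, 7 with median centring (7 fell, and the median of all genes moved from -0.03 to -0.13), 11 rose and 3 fell with the replicate block, 9 rose and 2 fell without the arrays of low Pax5, 34 rose without those of low B cell precursor markers, and 12 of 72 rose among members with a single probe set. Of all genes 10.4%, 5.45%, 4.22%, 4.60%, 7.97% and 6.80% rose in these settings, in that order. With median centring, with the block and without the arrays of low Pax5, 26.7%, 8.53% and 9.19% of all genes fell. Between the leukemias 7 were higher with cyclic loess, 9 higher and 3 lower without the arrays of low B cell precursor markers, and 5 lower when only those groups were fitted. Of all genes 2.27% were higher, 1.28% higher and 3.22% lower, and 1.80% lower, in that order. Leaving out 1 array at a time gave 19 to 35 higher and 2 to 4 lower in Pax5 leukemia, 9 to 34 higher and 2 to 6 lower in Bank1/Pax5 leukemia, and 3 to 10 higher and 6 to 10 lower between the leukemias. Of all genes 6.63% to 11.2% were then higher and 8.78% to 17.7% lower in Pax5 leukemia. In Bank1/Pax5 leukemia 4.19% to 8.17% were higher and 9.23% to 14.6% lower. Between the leukemias 0.888% to 2.32% were higher and 2.75% to 6.41% lower.

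Among named members, only differences that missed the threshold changed sign. In Pax5 leukemia against WT, Atp5md was 0.04 without the arrays of low Pax5 and -0.44 to 0.04 without single arrays. Ndufb6 was -0.01 with cyclic loess, -0.02 with median centring, -0.09 with the replicate block, -0.03 without the arrays of low B cell precursor markers and -0.06 to 0.14 without single arrays. Ndufs5 was -0.09 with array weights and -0.08 to 0.33 without single arrays, Cox8b 0.05 with cyclic loess and -0.07 to 0.02 without single arrays, and Ndufa4l2 -0.02 with median centring and -0.01 without the arrays of low markers, where Sdha was -0.02. Cox4i2 ranged from -0.01 to 0.11, Cox7a1 from -0.01 to 0.14 and Uqcrc2 from -0.07 to 0.01 without single arrays. In Bank1/Pax5 leukemia against WT, median centring gave -0.07 for Atp5g2, -0.08 for Cox7a2l, -0.03 for Cox7b2 and Ndufa4l2 and -0.02 for Ndufs1, and the replicate block gave -0.02 for Atp5g2, -0.01 for Atp5md and Cox7a2l and 0.02 for Sdhb. Cyclic loess gave 0.02 for Atp5a1 and 0.08 for Sdhb. Array weights gave 0.01 for Atp5a1 and Uqcrc2 and 0.04 for Sdhb. Leaving out the arrays of low markers gave 0.03 for Atp5a1, 0.00 for Cox7a1, 0.18 for Sdhb and 0.06 for Uqcrc2. Without single arrays Atp5a1 lay between -0.03 and 0.02, Atp5g2 between -0.03 and 0.11, Cox7a2l between -0.08 and 0.14, Sdhb between -0.09 and 0.11 and Uqcrc2 between -0.11 and 0.06. Between the leukemias, median centring gave -0.00 for Atp5a1, -0.03 for Cox7a2, Cox7b2, Cox8c and Uqcrc1, -0.02 for Ndufa4 and -0.01 for Ndufa4l2. Cyclic loess gave 0.07 for Cox6a2 and Sdhc, 0.02 for Cox7b and Uqcrfs1, -0.01 for Cox8c and 0.06 for Uqcrc2, and array weights 0.01 for Cox6a2, 0.00 for Cox7b and 0.08 for Uqcrc2. Leaving out the arrays of low Pax5 gave 0.53 for Cox6a2, -0.10 for Cox7a2, -0.13 for Ndufa4 and -0.05 for Uqcrc1, and leaving out those of low markers 0.03 for Cox7b, 0.07 for Sdhc, 0.16 for Uqcrc2 and 0.12 for Uqcrfs1. Without single arrays the values were -0.00 to 0.09 for Atp5a1, -0.01 to 0.17 for Cox4i1, -0.32 to 0.41 for Cox6a2, -0.04 to 0.13 for Cox7a2, -0.08 to 0.02 for Cox7b, -0.02 to 0.05 for Cox8c, -0.11 to 0.18 for Ndufa4, -0.09 to 0.06 for Sdhc, -0.03 to 0.16 for Uqcrc1, -0.07 to 0.10 for Uqcrc2 and -0.11 to 0.01 for Uqcrfs1.

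Replicate numbers showed no pairing here (4 of 28 comparisons had an array correlate best with its own number), though this check cannot exclude one. Calls lost under the block are therefore counted among the lost calls. Of called named members, 17 of 32, 8 of 24 and 4 of 13 kept their call under all 27 settings in the order Pax5 against WT, Bank1/Pax5 against WT and Bank1/Pax5 against Pax5, and none reversed. Cox8c and Ndufaf5 had 26 settings, because the removal of dim probe sets took them out. Dim members are limited by signal near background.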
